A study of Mus musculus with 16 samples.

Results

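Heat shock proteins and their co-chaperones were followed in atrial tissue, from the chambers that receive blood into the heart, after infarction of the left ventricle. The members are 10 named genes: the HSP70 chaperones Hspa1a, Hspa1b and Hspa8, the HSP110 protein gene Hsph1, the J-domain protein gene Dnajb1, the small heat shock proteins Hspb1, Hspb6, Hspb7 and Hspb8, and the co-chaperone gene Bag3. They were found on the array by symbol. A row was taken when its annotation listed 1 gene symbol only, and a gene with more than 1 such row was represented by the row of highest mean signal. This gave 9 of the 10 members among 30145 genes with such a row, and all 9 were among the 18420 genes that passed the filter on low signal and were tested. Hspa1b appears only in a row shared with Hspa1a, which is described beside the 9 and not counted with them.

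The groups were 4 male C57BL/6 wild-type mice with sham surgery and 4 each taken 1, 3 and 7 days after myocardial infarction (MI), which was induced at 10 weeks of age by ligating the left anterior descending coronary artery. Each array held atrial RNA labelled with biotin. The sources used here do not say when the sham mice were killed relative to surgery. Arrays are numbered 1 to 4 in sham, 11 to 14 on day 1, 31 to 34 on day 3 and 71 to 74 on day 7. All values are deposited log2 signals, and a difference is always an infarction day minus sham, or a later day minus an earlier one. Nothing in the labels says more about how replicates were drawn than that they are separate samples of a group, so the spread between arrays is the only error behind the p-values.

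Signal quality was not equal. Day 1 array 13 and day 3 array 31 stood apart, with a separation of positive from negative control rows of 0.755 and 0.743 (area under the curve, where 1 is complete) against 0.793 to 0.825 on the other 14 arrays. The median negative control, used here as the background of an array, was 4.87 on array 13 and 4.93 on array 31, against 4.44 to 4.71 on the others. Atrial muscle genes were present in every group: Nppa, the gene of atrial natriuretic peptide, lay at the ceiling of the scale, and Sln, encoding the calcium pump regulator sarcolipin, averaged 12.88 ± 1.96 on day 1, 14.46 ± 3.30 on day 3 and 16.30 ± 0.93 on day 7, against 17.97 ± 0.19 in sham (SD, n = 4).

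Chaperones of the HSP70 family fold proteins in cycles driven by ATP. J-domain proteins such as DNAJB1 bring them clients, and HSP110 and BAG proteins release the bound nucleotide so that a new cycle can start. Small heat shock proteins need no ATP: they hold unfolding proteins in solution, and in heart muscle several of them bind the sarcomere and the cytoskeleton. BAG3 links HSP70 to HSPB8 and directs damaged filamin and other sarcomere proteins to autophagy. Heat shock factor 1 switches many of these genes on by binding heat shock elements, arrays of short inverted repeats of GAA, and the inducible HSP70 genes are known for very low expression in unstressed tissue.

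The promoters of the members are shown here for the cores of such elements, because Hspa1a and Hspb1 were the members with the largest differences from sham. Windows running from 250 bases before to 50 after a start were taken from RefSeq (GRCm38.p6) and existed for 9 members, 12 windows in all, since Hsph1, Dnajb1 and Hspb6 have 2 starts each. No window was used for Hspa8. The motifs searched were GAANNTTC and TTCNNGAA, the head-to-head and tail-to-tail pairs of the repeat, each of which reads the same on both strands. Of 32851 such windows in the reference 7.86% held the first, 8.52% the second and 15.1% either. Among the members 8 of 12 windows, from 7 of 9 members, held at least 1 core. A match of this kind describes the sequence and says nothing of binding. The 250 bases before the start are given for Hspa1a (chr17:34972157-34972406, minus strand) and for Hspb1 (chr5:135887669-135887918, plus strand), 5′ to 3′ with each core in capitals.
Hspa1a: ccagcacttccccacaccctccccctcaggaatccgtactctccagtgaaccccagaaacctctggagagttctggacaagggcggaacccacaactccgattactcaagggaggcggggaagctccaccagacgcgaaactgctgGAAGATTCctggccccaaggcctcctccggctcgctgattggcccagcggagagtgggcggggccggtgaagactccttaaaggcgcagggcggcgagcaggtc
Hspb1: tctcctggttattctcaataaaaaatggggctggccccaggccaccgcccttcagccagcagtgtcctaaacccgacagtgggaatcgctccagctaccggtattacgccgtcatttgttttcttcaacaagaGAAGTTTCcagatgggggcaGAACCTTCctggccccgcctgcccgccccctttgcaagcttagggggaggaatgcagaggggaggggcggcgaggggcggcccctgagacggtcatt

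The Hspa1a core begins at position -104, where -1 is the last base before the start, and Hspb1 has a pair of cores of the head-to-head kind at -117 and -97. Stretches of 30 bases around them are shown to compare the cores themselves, for Hspa1b (chr17:34959324-34959353, minus strand), Hspb6 at its second start (chr7:30553170-30553199, plus strand), Hspb8 (chr5:116422844-116422873, minus strand), Bag3 (chr7:128523603-128523632, plus strand) and Hsph1 at its first start, upstream (chr5:149636351-149636380) and downstream (chr5:149636282-149636311), both on the minus strand.
Hspa1b: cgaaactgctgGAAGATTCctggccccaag
Hspb6: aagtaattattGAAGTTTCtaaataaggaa
Hspb8: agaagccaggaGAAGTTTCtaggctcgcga
Bag3: ccaagttctctggatgggaccaGAAGTTTC
Hsph1 upstream: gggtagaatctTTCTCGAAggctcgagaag
Hsph1 downstream: aatgctgcagaTTCTGGAAAGTTCtcctca

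The core letters GAAGTTTC occur in Hspb1, Hspb6, Hspb8 and Bag3, at -117, -120, 3 and 43 from the start, where 1 is the first transcribed base. Hsph1 has a tail-to-tail core at -54, and downstream of its first start a tail-to-tail core at 16 overlaps a head-to-head core at 21. The windows of Hspa1a and Hspb1 hold cores, and so do those of Hspb6, Hspb8, Bag3 and Hsph1, whose signals were lower or did not pass the test on day 1. Neither motif is in the windows of Dnajb1 and Hspb7 or in the window at the first start of Hspb6. The windows of Hspa1a and Hspa1b differ at 4 of 300 bases, an identity of 98.7%. With the Hspa1a base first and positions counted from 1 at the 5′ end of the window, the substitutions are C44T, T47C, T249G and C276T, and none lies in the core.

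**Figure D1:**
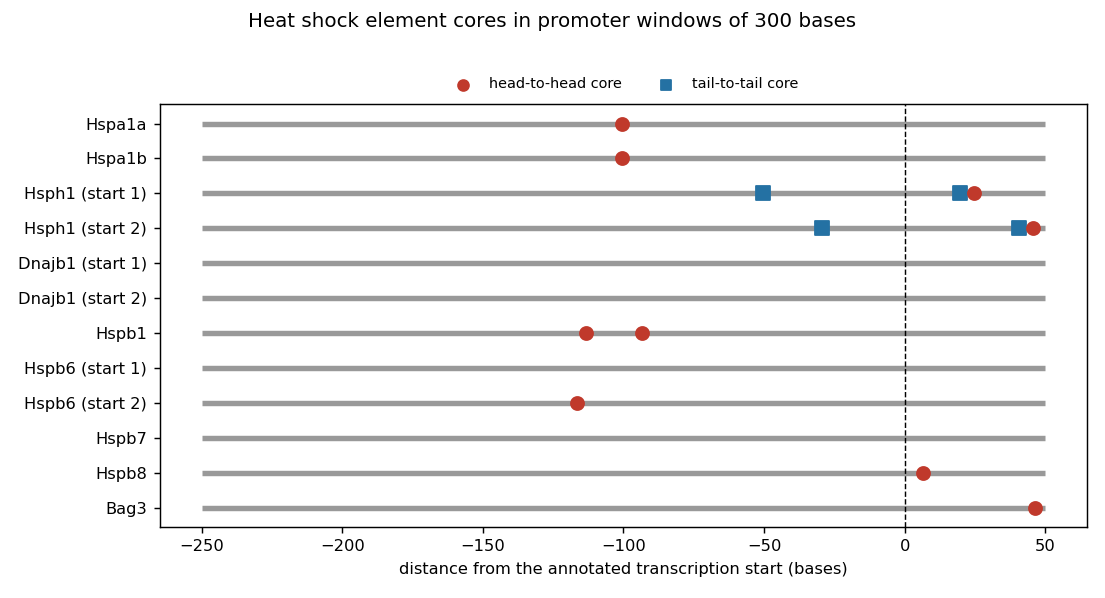
Heat shock element cores in the 12 promoter windows of 9 members, drawn by distance in bases from the RefSeq start, with circles for head-to-head and squares for tail-to-tail pairs at the middle of each core. By their first base, cores of Hspa1a, Hspa1b, Hspb1 and the second Hspb6 window lie upstream between -120 and -97, those of Hspb8 and Bag3 lie just after the start, and the Dnajb1 and Hspb7 windows are empty.

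On day 1 the members divided. Hspa1a, the stress-inducible HSP70, and Hspb1, the small heat shock protein known as HSP27 in people, were higher than in sham, and Hspb6, encoding the muscle-rich HSP20, was lower. The other 6 measured members did not pass the test. Among them was Hspa8, whose row lay at the ceiling and could show no difference. It counts as not called for that reason, here and on the later days. The 2 rises and 1 fall stand against 47.1% of all tested genes called on that day, 24.9% higher and 22.2% lower. The groups did not overlap in 4 members, Hspa1a, Hspb1, Hspb6 and Hspb8, and in 55% of all genes. When arrays 13 and 31 were left out the call count was 5, with the same 2 genes higher and Hsph1, Hspb6 and Hspb8 lower. Calls over all 18420 genes then numbered 10626, against 8679 with all arrays.

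By day 3 no member was higher than sham by the test, and 4 were lower: Hsph1, Hspb6, Hspb8 and Bag3. Of all genes 43.7% were called, 23.5% higher and 20.2% lower, and the 4 values of day 3 and sham did not overlap in 42.8%. Among members there was no overlap in 3, Hsph1, Hspb6 and Hspb8. Leaving out arrays 13 and 31 again gave 4, but the genes were Hsph1, Hspb6 and Hspb8 lower and Dnajb1 higher. Calls over all 18420 genes then numbered 9041, against 8051 with all arrays.

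By day 7 Hsph1 alone among the measured members differed from sham by the test, and it was lower. The share called over all genes was 24.8%, with 14.9% higher and 9.92% lower, and the 4 values did not overlap in 38.3%. The same was true of 3 members, Hsph1, Hspb6 and Hspb8, all lower on day 7. The count was 3, those same 3 genes, when arrays 13 and 31 were left out. Calls over all 18420 genes also rose in that fit, to 7480 from 4568 with all arrays. The median difference over the members was -0.02 on day 1, -0.11 on day 3 and -0.19 on day 7, beside 0.06, 0.08 and -0.01 over all tested genes. The day 1 median is the value of Hspa8 itself, whose row lay at the ceiling, so no shift of the members can be read from it. Hspa1a passed the filter on low signal only through its day 1 values and array 31, so no count above is support for a response of the family. Other scalings moved the balance over all genes: of the genes called, 52.9% were higher on day 1, 53.8% on day 3 and 60.0% on day 7 as deposited, and 36.2%, 37.7% and 43.9% after quantile normalisation, which moved the median difference of all genes on day 1 to -0.063 and on day 3 to -0.032. In whole tissue, fewer cells of a type and less RNA per cell cannot be told apart.

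**Figure D2:**
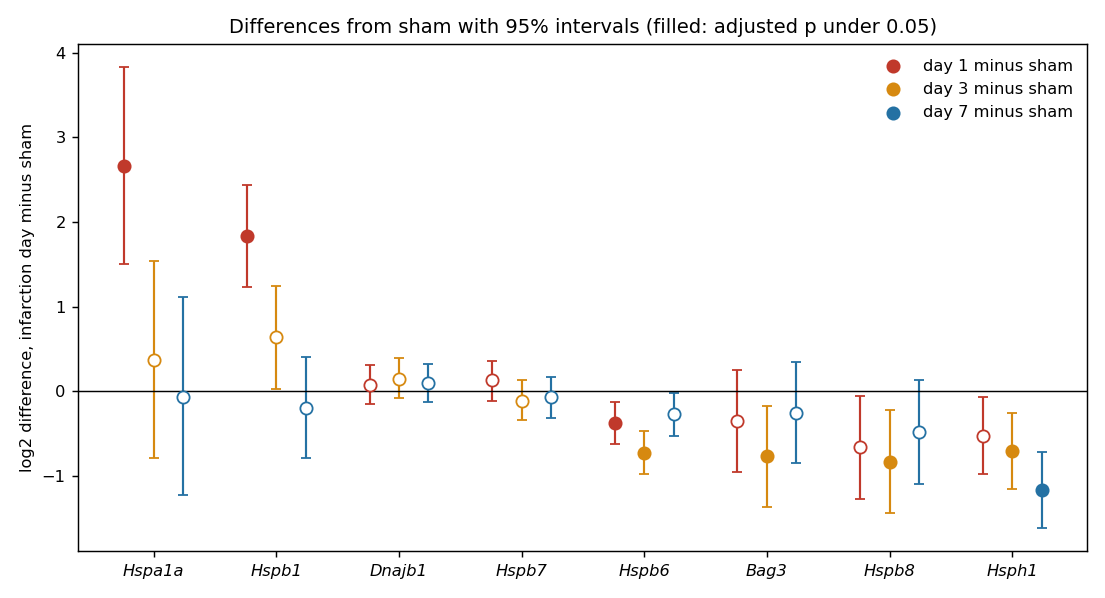
Log2 difference from sham of 8 members on days 1, 3 and 7, with the 95% confidence interval of the fit and filled points where the limma test called the gene. Hspa1a and Hspb1 stand above 0 on day 1 by 2.66 and 1.83, Hsph1 steps down to -1.16 on day 7, and Hspb6 is lowest on day 3 at -0.73.

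Hspa1a encodes the HSP70 made in quantity under stress. Its signal was 3.66, 3.92, 3.59 and 3.45 in sham, 7.38, 4.63, 7.78 and 5.47 on day 1, 5.01, 3.61, 3.69 and 3.80 on day 3, and 3.65, 3.51, 3.58 and 3.65 on day 7. All 4 day 1 values lay above all sham values, and the day 1 arrays were far apart from one another. On 3 of 4 day 1 arrays the signal exceeded the median negative control, the exception being array 12, as it did on array 31 of day 3, and on no sham or day 7 array. The day 1 mean was 6.32 ± 1.51, against 3.65 ± 0.20 in sham (SD, n = 4), and the log2 difference was 2.66 ± 0.54 (SE, limma adjusted p = 0.0015). With the mean background of the sham arrays in place of their values the difference of means was 1.83, a value without an error. The background itself was higher on the day 1 arrays, at 4.69 to 4.87. An SD of at least 1.51 on day 1 was found in 22 of the tested genes, Hspa1a included (0.119%).

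The rise of Hspa1a was seen on day 1 and not later. Day 3 stood 0.37 above sham (adjusted p = 0.597), with a difference of 0.04 once array 31 was left out, and day 7 differed by -0.06 (adjusted p = 0.968, limma). Set against day 1 directly, day 3 was lower, with a log2 difference of -2.29 ± 0.54 (limma adjusted p = 0.0186, groups overlapping), a call lost in 5 of 25 alternatives, the fit of both groups alone and those without array 11, 32, 33 or 34. Day 7 was also lower than day 1, with a fitted difference of -2.72 ± 0.54 (limma adjusted p = 0.00239, groups apart), but no day 7 array was above background. With the mean background of the day 7 arrays in place of their values the difference of means was -1.80, again without an error. Over 25 alternative analyses the day 1 difference from sham stayed between 2.17 and 3.22 and was called in each. It was 2.17 without array 13, and also without arrays 13 and 31 together.

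Hspa1b, which encodes a nearly identical protein from a neighbouring gene, is listed with Hspa1a in transcript cluster TC1700001935. Its signal was 6.12, 6.28, 5.80 and 6.13 in sham, 9.50, 6.85, 9.61 and 7.94 on day 1, 6.94, 6.14, 6.07 and 6.32 on day 3, and 6.06, 6.14, 6.17 and 6.06 on day 7. The order of the day 1 arrays was that of the Hspa1a row, with array 13 highest and array 12 lowest, and no day 1 value overlapped sham. In a fit with rows of several symbols added, day 1 exceeded sham by 2.39 ± 0.46 (SE, limma adjusted p = 0.00102). Day 3 and day 7 differed from sham by 0.29 and 0.03 (limma adjusted p = 0.627 and 0.986). Since the genes are near-identical copies, neither row can be credited to one of them alone.

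Hspa8 encodes the constitutive HSP70 of every cell, HSC70. Its 4 rows with 1 symbol carry chromosomes 1, 1, 6 and 14 in their names, whereas RefSeq places Hspa8 on chromosome 9. Such a mismatch was rare: 29185 of 29286 rows with 1 symbol and a RefSeq entry matched in chromosome (99.66%). The row the rule selects, on chromosome 6, had a mean of 19.91, and all 16 arrays lay within 0.2 of the highest value of the array. No difference can be read at that ceiling. Transcript cluster TC0900000458, on chromosome 9, lists Hspa8 with 3 small nucleolar RNAs. Its signal was 13.89, 13.96, 13.64 and 13.85 in sham, 14.17, 14.05, 14.34 and 14.04 on day 1, 13.99, 14.18, 14.15 and 14.05 on day 3, and 13.98, 14.01, 14.01 and 13.94 on day 7. Day 1 and day 3 lay wholly above sham by small steps, at 0.32 ± 0.10 and 0.26 ± 0.10 (SE, limma adjusted p = 0.0196 and 0.0488). The day 7 difference of 0.15 did not pass the test (adjusted p = 0.32, limma). Rows of several symbols were fitted on the deposited scale only, so whether these calls hold under other scalings was not tested. Transcript cluster TC0500001915, which lists Hspa8 with Gm15459, ran from 18.90 to 19.59 over all arrays and was not called on any day, with differences of 0.20, 0.13 and 0.12 (limma adjusted p = 0.0922, 0.263 and 0.444).

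Hsph1 encodes HSP105, which exchanges nucleotide on HSP70 and disaggregates proteins with it. It had 9.26, 10.19, 8.98 and 9.27 in sham, 9.13, 8.68, 9.15 and 8.65 on day 1, 8.84, 8.69, 8.63 and 8.74 on day 3, and 8.20, 8.44, 8.27 and 8.15 on day 7. Sham array 2 was the highest value, day 1 overlapped sham, and days 3 and 7 lay wholly below it. Day 7 averaged 8.26 ± 0.13, against 9.42 ± 0.53 in sham (SD, n = 4), and the log2 difference was -1.16 (limma adjusted p = 0.00119), and in 26 alternatives the difference ran from -1.31 to -0.91 and was called each time. Day 3 was lower, with a log2 difference of -0.70 (limma adjusted p = 0.0149), and the day 1 difference of -0.52 ± 0.21 missed the threshold (limma adjusted p = 0.0538). The day 1 difference was called in 7 of 26 alternatives, among them quantile normalisation, centring, and the fits without sham array 3 or array 31. Day 7 was also lower than day 1, by -0.64 (limma adjusted p = 0.0396), though the call was lost in 8 of 26 alternatives, among them those without array 11, 13, 71, 72, 73 or 74.

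Dnajb1 encodes HSP40, the J-domain partner that hands clients to HSP70 and is itself a heat shock gene. Its signal was 6.83, 6.68, 6.65 and 7.02 in sham, 6.99, 6.87, 6.83 and 6.83 on day 1, 6.61, 7.10, 7.08 and 7.01 on day 3, and 6.97, 6.86, 6.87 and 6.89 on day 7. The groups overlapped throughout, and array 31 held the lowest value of all. The day 1 difference was 0.08, with a 95% interval from -0.15 to 0.31 (limma adjusted p = 0.55). On day 3 it was 0.15 (limma adjusted p = 0.265), and 0.27 without array 31 (limma adjusted p = 0.0186). Day 7 differed by 0.10 (limma adjusted p = 0.582).

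Hspb1 encodes a small heat shock protein that caps actin filaments and is phosphorylated under stress. Its values were 7.63, 7.61, 6.93 and 7.15 in sham, 9.22, 9.22, 9.50 and 8.70 on day 1, 8.84, 7.80, 7.63 and 7.61 on day 3, and 7.52, 7.39, 6.83 and 6.81 on day 7. Every day 1 array exceeded every sham array, and on day 3 array 31 stood far above the other 3. Day 1 averaged 9.16 ± 0.33, against 7.33 ± 0.35 in sham (SD, n = 4), and the log2 difference was 1.83 ± 0.28 (SE, limma adjusted p = 0.000186), with an interval from 1.23 to 2.44. It ran from 1.70 to 1.99 over 26 alternatives and was called in each. The day 1 values of Hspb1 were closer to one another than those of Hspa1a, which had an SD of 1.51. An SD of at least that of Hspb1, 0.33, was found in 24.7% of tested genes. The day 3 difference was 0.64 (limma adjusted p = 0.0832) and 0.35 without array 31, and day 7 differed by -0.19 (limma adjusted p = 0.725). Day 7 was lower than day 1 by -2.02 ± 0.28 (limma adjusted p = 0.000164). Day 3 was lower than day 1 by -1.19 (limma adjusted p = 0.0184), a call lost without any one of arrays 11, 13, 32, 33 and 34.

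Hspb6, encoding HSP20, is abundant in muscle and relaxes smooth muscle when phosphorylated. It had 8.56, 8.37, 8.42 and 8.24 in sham, 8.12, 8.23, 7.79 and 7.98 on day 1, 7.45, 7.90, 7.63 and 7.71 on day 3, and 8.17, 8.20, 7.99 and 8.16 on day 7. All 3 infarction groups lay below all sham values, day 1 by the narrowest margin. Day 3 averaged 7.67 ± 0.18, against 8.40 ± 0.13 in sham (SD, n = 4), and the log2 difference was -0.73 (limma adjusted p = 0.000215), called in 26 of 26 alternatives between -0.86 and -0.65. Day 1 was lower, with a log2 difference of -0.37 ± 0.12 (SE, limma adjusted p = 0.0201). Without array 13 it was -0.29 (limma adjusted p = 0.0696), and without sham array 1 it was -0.32 (limma adjusted p = 0.0581). The day 7 difference of -0.27 did not pass (limma adjusted p = 0.111), though 5 of 26 alternatives called it, quantile normalisation and centring among them. Day 7 exceeded day 3 by 0.45 (limma adjusted p = 0.0215). That last call was lost in 5 of 26 alternatives, the fit of both groups alone and those without array 33, 71, 72 or 74.

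Hspb7, a cardiac small heat shock protein that binds filamin C and keeps the thin filament in order, gave high signals with little spread. They were 16.92, 16.93, 16.92 and 16.90 in sham, 17.21, 17.01, 16.81 and 17.16 on day 1, 16.62, 16.82, 16.90 and 16.92 on day 3, and 17.00, 17.01, 16.60 and 16.80 on day 7. The groups overlapped on every day. Differences from sham were 0.13 on day 1 (95% interval from -0.11 to 0.36, limma adjusted p = 0.349), -0.11 on day 3 (-0.34 to 0.13, adjusted p = 0.45) and -0.07 on day 7 (-0.31 to 0.17, adjusted p = 0.748). Under quantile normalisation the day 3 difference was -0.49 (limma adjusted p = 0.0493).

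Hspb8 encodes HSP22, the small heat shock protein that BAG3 binds. It had 13.80, 13.50, 13.40 and 13.45 in sham, 13.29, 13.16, 12.31 and 12.74 on day 1, 11.77, 13.11, 13.02 and 12.94 on day 3, and 13.24, 13.32, 12.97 and 12.71 on day 7. All infarction values lay below all sham values, and array 31 was far below the other day 3 arrays. Day 3 averaged 12.71 ± 0.63, against 13.54 ± 0.18 in sham (SD, n = 4), and the log2 difference was -0.83 (limma adjusted p = 0.0293). Without array 31 it was -0.51 (limma adjusted p = 0.0641), and without arrays 13 and 31 it was -0.51 (limma adjusted p = 0.018). The call was also lost without sham array 1 or sham array 2. The day 1 difference of -0.66 ± 0.29 (limma adjusted p = 0.0689) was called without array 31 (limma adjusted p = 0.00968), and also without array 11. In all it was called in 7 of 26 alternatives, quantile normalisation and centring among them. The day 7 difference of -0.48 was not called (limma adjusted p = 0.256).

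Bag3, the gene of the co-chaperone that joins HSP70 and HSPB8 to autophagy in muscle, had 9.66, 10.21, 10.22 and 10.03 in sham, 9.94, 10.06, 9.28 and 9.45 on day 1, 8.33, 9.44, 9.57 and 9.73 on day 3, and 9.89, 10.06, 9.48 and 9.72 on day 7. Every infarction group overlapped sham, and array 31 held the lowest value. Day 3 averaged 9.27 ± 0.64, against 10.03 ± 0.26 in sham (SD, n = 4), and the log2 difference was -0.76 ± 0.28 (SE, limma adjusted p = 0.0384). The difference was -0.45 without array 31 (limma adjusted p = 0.0894), and 7 of 26 alternatives lost the call, those without sham array 2, 3 or 4 among them. Days 1 and 7 differed by -0.35 and -0.25 (limma adjusted p = 0.304 and 0.61).

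**Figure D3:**
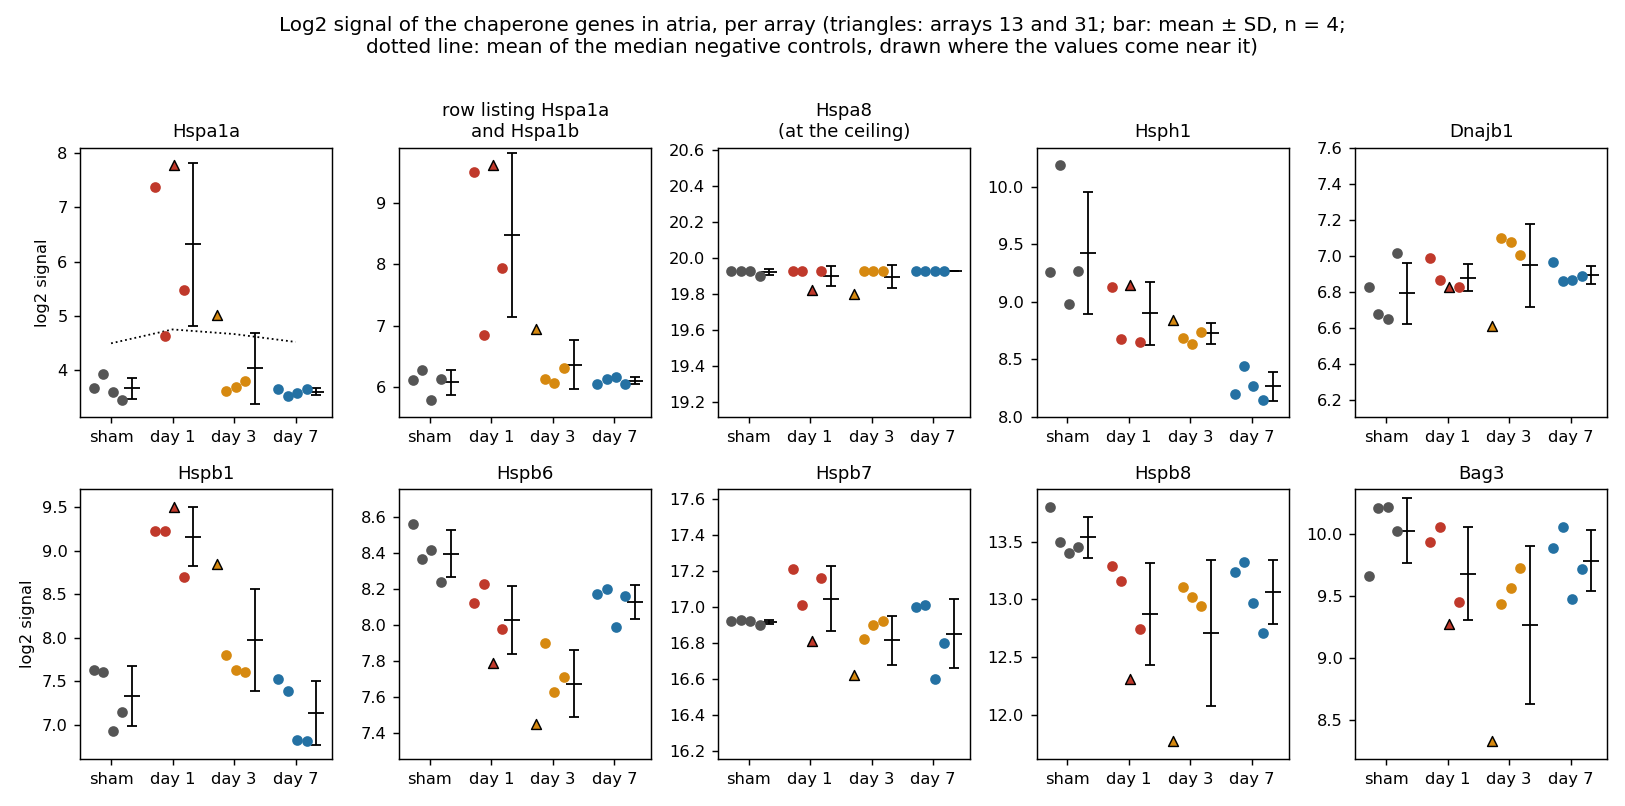
Log2 signal of each array for the members and for the row shared by Hspa1a and Hspa1b, in 10 panels with their own y ranges and the groups in order of time, with bars for the mean ± SD (n = 4) and triangles for arrays 13 and 31. The dotted line in the Hspa1a panel is the mean of the median negative controls. Hspa1a and the shared row are high and scattered on day 1, and Hspb1 is high and less scattered than these. The day 3 triangle is the highest or the lowest day 3 point in every panel.

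A moderated F test for a difference from sham on any day, which called 52.3% of all tested genes, called Hspb1 (adjusted p = 0.000168), Hspb6 (0.00118), Hspa1a (0.00204) and Hsph1 (0.00284, limma). Hspb8, Bag3, Hspb7, Dnajb1 and Hspa8 were not called (limma adjusted p = 0.0941, 0.134, 0.254, 0.606 and 0.855). For Hspa8, at the ceiling, neither this test nor the counts below can show a difference. Hspa1a passed the filter on low signal through 4 day 1 arrays and 1 day 3 array, and through no sham or day 7 array. So no count of members that includes Hspa1a, here or below, is support for a response of the family. Between days, 2 members were called lower on day 3 than on day 1, against 8.11% of genes called (2.16% lower), and the values of the 2 days overlapped in all 9 members. They did not overlap in 10.4% of genes. On day 7 relative to day 1, 3 members, Hspa1a, Hsph1 and Hspb1, were lower, against 26.4% of genes called (12.7% lower). Those same 3 did not overlap between the days, against 41.7% of genes. On day 7 relative to day 3, Hspb6 alone was called, higher, against 12.6% of genes called (4.06% higher and 8.57% lower), and 3 members, Hsph1, Hspb1 and Hspb6, did not overlap, against 21.9% of genes.

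Markers of several cell types also differed from sham, and their part in the member results was not tested. As the mean log2 signal of a list relative to the sham mean, 8 neutrophil markers (8 of 8 listed) reached 4.86 to 6.18 on day 1, highest on array 13, against -0.12 to 0.17 in sham. On day 1 arrays 11, 12 and 14 these markers were alike, at 4.86, 4.97 and 4.92, whereas Hspa1a had 7.38, 4.63 and 5.47. On day 3 they stood at 5.04 on array 31 and at 1.66 to 1.76 on the other arrays, and on day 7 at 0.12 to 0.30. Array 31 was also the highest day 3 array for Hspa1a and Hspb1. Atrial cardiomyocyte markers (7 of 9 listed were usable) ran from -3.28 to -1.96 on day 1, from -1.40 to -1.04 on day 3 apart from array 31 at -4.35, and from -1.45 to -0.52 on day 7, against -0.20 to 0.13 in sham. Macrophage markers (8 of 8) stood at 1.84 to 1.94 on day 1 and 2.37 to 3.78 on day 7, against -0.10 to 0.09 in sham. On day 3 they stood at 1.63 on array 31 and at 3.19 to 3.70 on the other arrays. Fibroblast markers (7 of 8) were highest on day 7, at 3.83 to 4.64, when no member was called higher than sham. Their day 3 values were 0.59 on array 31 and 2.75 to 2.99 on the other arrays.

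The genes nearest in pattern to each called member were found by the root mean square distance between profiles, each centred on its sham mean, over 16 arrays. Symbols of clones, RIKEN and predicted genes, expressed sequences and mitochondrially encoded genes, and those in capitals and digits only, were passed over. The genes named are the nearest of those kept. For Hspa1a they were Usp53 and Lmcd1, at 0.52 and 0.53, where the Hspa1a profile itself measures 1.52. Pgf and Rrp12 lay nearest to Hspb1, at 0.30 and 0.32 against 1.04 for its own profile. The nearest to Hspb6 was Galnt15, at 0.09 against 0.45. For Hspb8 it was Pacsin2, at 0.15 against 0.69, and for Bag3 it was Nek9, at 0.17 against 0.56. The nearest to Hsph1 was Glp1r, at 0.32 against 0.77.

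The wider chaperone network was read from 8 lists of 88 genes, of which 76 were tested. On day 1, 22 were higher and 28 lower (65.8% called), on day 3, 16 were higher and 27 lower (56.6%), and on day 7, 2 were higher and 19 lower (27.6%). The shares called over all tested genes were 47.1%, 43.7% and 24.8%, so the total day 7 share was near that of all genes. By direction it was not alike: the 2 higher and 19 lower of 76 stood beside 14.9% higher and 9.92% lower over all genes. The median difference was -0.08 on day 1, -0.20 on day 3 and -0.19 on day 7. Without arrays 13 and 31 the counts were 23 higher and 30 lower on day 1, 21 and 26 on day 3, and 4 and 33 on day 7. Calls over all 18420 genes were then 10626, 9041 and 7480, of which 6085, 5197 and 3917 were higher. Under quantile normalisation the list counts were 17 and 32, 8 and 33, and 2 and 28. Calls over all genes were then 9481, 8715 and 5115, of which 3436, 3284 and 2246 were higher. Actb, a common control gene, was higher than sham on all 3 days by 1.98, 1.99 and 1.34 (limma adjusted p = 3.46e-06, 3e-06 and 0.000176), also under both other scalings.

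Of 16 tested genes of HSP90 and its co-chaperones 11 were lower and 3 higher on day 1, with a median of -0.61, 8 were lower and 2 higher on day 3, and 6 were lower and 0 higher on day 7. Over all genes 22.2%, 20.2% and 9.92% were lower on these days. The day 7 count of lower genes was 11 without arrays 13 and 31. In that fit 7480 of 18420 genes were called on day 7, 3917 of them higher, so the 9.92% does not apply to it. Fkbp4, an immunophilin that works with HSP90 on steroid receptors, was lower, with log2 differences of -2.41 ± 0.32, -2.63 ± 0.32 and -1.80 ± 0.32 (SE, n = 4) on days 1, 3 and 7. Unc45b, the muscle chaperone that folds myosin, was lower, with log2 differences of -1.89, -1.88 and -1.38. Hsp90aa1, the inducible HSP90, went the other way, averaging 14.71 on day 1 and 14.28 on day 3, against 13.25 in sham (limma adjusted p = 0.00264 and 0.0192), with overlapping values. The day 3 call of Hsp90aa1 was lost under quantile normalisation, at 0.55 (limma adjusted p = 0.213).

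Of 14 tested chaperonin and prefoldin genes 8 were higher and 2 lower on day 1, 8 higher and 3 lower on day 3, and 0 higher and 4 lower on day 7. Over all genes 24.9% were higher and 22.2% lower on day 1, 23.5% and 20.2% on day 3, and 14.9% and 9.92% on day 7. The list includes the prefoldin subunits Vbp1, Pfdn1, Pfdn2, Pfdn4 and Pfdn5, which hand unfolded chains to the cytosolic chaperonin. Of these Pfdn4 was among the higher genes on days 1 and 3, and Pfdn2 among the lower ones on days 3 and 7. Cct2 and Cct3, subunits of the cytosolic ring that folds actin and tubulin, rose by 1.18 ± 0.11 and 1.12 ± 0.13 (SE) on day 1 (limma adjusted p = 3.95e-06 and 2.37e-05). Hspd1, the mitochondrial chaperonin, was lower, with log2 differences of -0.71, -0.89 and -1.16 on days 1, 3 and 7 (limma adjusted p = 0.00514, 0.000983 and 0.000308). On day 3 the list gave 4 higher and 4 lower under quantile normalisation, and 4 higher and 3 lower after centring. Of 18420 genes 8715 and 8957 were called in these 2 fits, 3284 and 3307 of them higher.

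Of 5 other small heat shock proteins 2 were higher on day 1 and 1 lower. For the small lists in this paragraph, the shares over all genes were 24.9% higher and 22.2% lower on day 1. They were 23.5% and 20.2% on day 3, and 14.9% and 9.92% on day 7. Hspb2, which pairs with HSPB3 in muscle, stood at 7.97 on day 1, against 7.12 in sham (log2 difference 0.85, limma adjusted p = 0.0006), and Hspb3 at 5.95, against 7.05 (-1.10, limma adjusted p = 0.0348). Cryab, the alpha B-crystallin of muscle and lens, was higher on day 1 by 0.42 (limma adjusted p = 0.018) and lower on day 7 by -0.51 (limma adjusted p = 0.0107). The day 1 call was lost under quantile normalisation at 0.22 and after centring at 0.33. Among 8 other HSP70 and HSP110 genes 2 were higher and 3 lower on day 1, and 3 were lower and 0 higher on day 3 and on day 7. Without arrays 13 and 31, 3 were lower and 2 higher on day 3, as were 2 of the 5 small heat shock proteins. In that fit 9041 of 18420 genes were called on day 3, 5197 of them higher. Hspa4l, a HSP110 protein like Hsph1, was lower, with log2 differences of -1.52, -1.26 and -0.80 on days 1, 3 and 7.

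Of 13 other J-domain genes 5 were lower and 2 higher on day 1, 7 and 2 on day 3, and 3 and 0 on day 7. The shares of all genes, which apply to each list here, were 22.2% lower and 24.9% higher on day 1. They were 20.2% and 23.5% on day 3, and 9.92% and 14.9% on day 7. Dnaja3, a mitochondrial J-domain protein, was lower, with log2 differences of -1.45, -1.53 and -1.04 on days 1, 3 and 7. Of 7 BAG proteins and exchange factors 3 were lower and 1 higher on day 1, 2 lower on day 3 and 1 on day 7. Without arrays 13 and 31 the day 7 counts were 6 lower and 2 higher for the J-domain genes, and 3 lower for the BAG list. In that fit 7480 of 18420 genes were called on day 7, 3917 of them higher, so the shares above do not apply to it. Bag1, an exchange factor of HSP70, was lower, with a log2 difference of -0.75 on day 1 and of -1.02 on day 3 (limma adjusted p = 0.0321 and 0.00592). Of 4 tested heat shock factors and regulators none was higher on any day, and 1, 3 and 1 were lower on days 1, 3 and 7. Hsbp1, a regulator that binds heat shock factor 1, was lower, with a log2 difference of -1.38 on day 1 and of -1.26 on day 3 (limma adjusted p = 0.022 and 0.0325), while Hsf4, counted lower on days 3 and 7, was not above background on any array, so no size can be read from it. Hsf1 itself is not analysed here.

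Partners and clients of the BAG3 complex gave 4 higher and 2 lower of 9 on day 1, 4 and 1 on day 3, and 2 and 0 on day 7. Among all genes 24.9% were higher and 22.2% lower on day 1, 23.5% and 20.2% on day 3, and 14.9% and 9.92% on day 7. Flnc, the muscle filamin that BAG3 sends to autophagy, averaged 13.51 ± 1.07 on day 1, against 9.42 ± 0.32 in sham (SD, n = 4), and the log2 difference was 4.09 ± 0.45 (SE, limma adjusted p = 1.22e-05). On day 3 the difference was 1.80 ± 0.45 (limma adjusted p = 0.00483), and on day 7 it was 0.35 (limma adjusted p = 0.662). Flna, the filamin of other cells, was higher on all 3 days, by 2.47, 2.97 and 2.42. Synpo2, a filamin-binding partner of BAG3, was lower on day 3 by -1.40 (limma adjusted p = 0.00168). The members of the complex, Hspb8 and Bag3, stood at -0.66 and -0.35 on day 1 when Flnc was at 4.09.

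**Figure D4:**
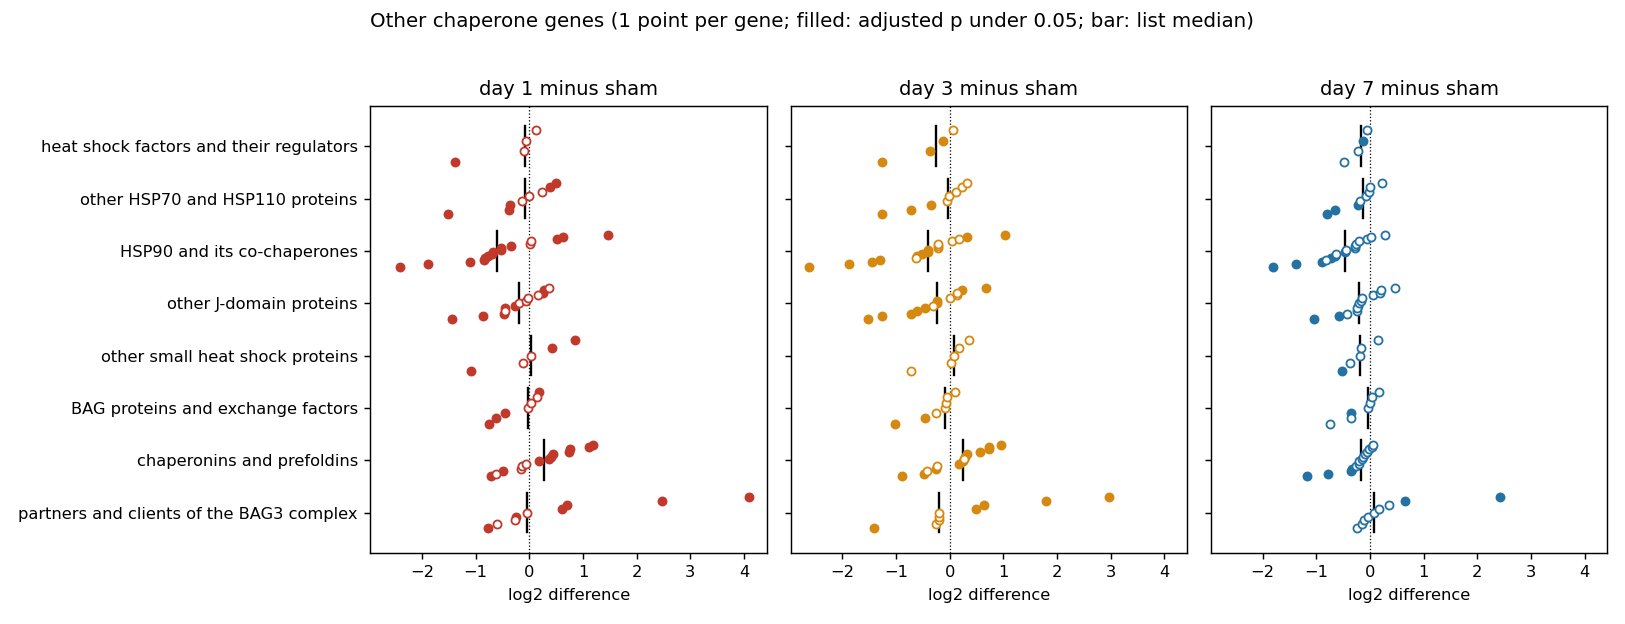
Log2 differences from sham of the genes in 8 chaperone lists, with 1 panel for each infarction day and 1 point per gene. On day 1 the list median is -0.61 for HSP90 and its co-chaperones and 0.27 for chaperonins and prefoldins, and Flnc is the highest point of the BAG3 partners on day 1 at 4.09.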

How the data were processed

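The authors deposited a table of log2 signals for 16 arrays and 72688 rows, made with Affymetrix Expression Console per the submitters' processing notes. The sources used here do not give the background correction, summarisation or scaling. The labels name a 3′ array, whereas the row names are transcript clusters, so the array design is uncertain. Rows were joined to a platform annotation table: 30604 had 1 symbol, 2146 several, 33206 none and 6732 were controls. Testing required a signal over the array's median of all rows on 4 of 16 arrays or more, which left 18420 genes. The differences were fitted by limma 3.58.1 in R 4.3.3 (lmFit and eBayes with a trend) with 1 mean per group over all arrays. Benjamini-Hochberg adjustment was applied in each of 6 pairwise comparisons, and calls were made at an adjusted p under 0.05. Precision is limited by the number of arrays. The fit was tested on simulated data.

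A gene with a mean above 19 and a distance below the array maximum with an SD under 0.05 was taken as at the ceiling. Background was the median of the 5222 negative control rows of an array, and a group was called not above background where all its arrays lay at or under that. The named genes are all members and, from each chaperone list, the called genes with the largest differences by a rule on size, with Actb as a control. The members, lists and rules were chosen with earlier results of these data known. Alternatives covered scaling, filters, variance prior, array weights, arrays in the fit, rows per gene and each array left out. A fit with rows of several symbols added was chosen after seeing the data. Motifs in the proteins, which were planned, were not analysed here.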

Additional observations from a re-analysis of the deposited data

Results flagged for a closer look

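Single arrays lay far from the other 3 of their group in 4 of the 32 member and group combinations examined, where chance alone gives about 1 in 20. In 3 of these the array was day 3 array 31. Hspa1a stood at 5.01 on array 31, against 3.61 to 3.80 on the other day 3 arrays. Hspb1 stood at 8.84 there, against 7.61 to 7.80. Hspb8 stood at 11.77, against 12.94 to 13.11. The fourth was Hspb7 in sham, where array 4 at 16.90 lay only slightly below the rest at 16.92 to 16.93.

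Several members differed between infarction days in a direct test (limma, adjusted over all genes). Hspa1a was lower than on day 1, with log2 differences of -2.29 on day 3 and -2.72 on day 7 (-1.80 or beyond with background in place of the day 7 values, none of which exceeded it). Hspb1 was lower than on day 1 too, at -1.19 on day 3 and -2.02 on day 7. Hsph1 was lower on day 7 than on day 1, at -0.64, and Hspb6 was higher on day 7 than on day 3 by 0.45.

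Of 3 rows that list a member beside other symbols, which the selection of members leaves out, 2 were called against sham. Transcript cluster TC1700001935, which lists Hspa1a and Hspa1b, was higher than sham by 2.39 on day 1. Transcript cluster TC0900000458, which lists Hspa8 with small nucleolar RNAs, was higher by 0.32 on day 1 and by 0.26 on day 3. Transcript cluster TC0500001915, which lists Hspa8 with Gm15459, was not called on any day, with differences of 0.20, 0.13 and 0.12. These 3 rows were fitted on the deposited scale only.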

How the results depend on the processing

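No call on a member changed direction under any alternative run. The rises of Hspa1a and Hspb1 on day 1, the fall of Hspb6 on day 3 and the fall of Hsph1 on day 7 were called under every alternative run (Hspa1a was not tested under the stricter filter), as were the lower day 7 than day 1 signals of Hspa1a and Hspb1. Counts moved more than these genes did. On day 1 the number of called members was 5 after quantile normalisation, 6 after centring, 6 with array weights and 5 without arrays 13 and 31, and leaving out 1 array gave 2 to 5. On day 3 it was 5 after quantile normalisation, 5 after centring and 5 with array weights, against 4 in the fit as reported. It was 1 when only the arrays of both groups were fitted, and 2 to 4 with 1 array left out (2 without sham array 2). On day 7 it was 2 after quantile normalisation, 2 after centring, 2 with array weights, 3 with only the arrays of both groups and 3 without arrays 13 and 31, and 1 with any 1 array left out. Between days 3 and 1 it was 3 after quantile normalisation, 3 after centring, 3 without arrays 13 and 31 and 4 with array weights. It was 1 under the stricter filter, 0 with only the arrays of both groups, and 0 to 2 with 1 array left out. Between days 7 and 3 it was 0 with only the arrays of both groups, and 0 to 2 with 1 array left out. Calls over all genes moved as well. On day 1 they were 9481 after quantile normalisation, 9001 after centring, 11786 with array weights and 10626 without arrays 13 and 31. The fit as reported gave 8679. On day 3 they were 8715 after quantile normalisation, 8957 after centring, 10093 with array weights and 6448 with only the arrays of both groups, against 8051. On day 7 they were 5115 after quantile normalisation and 5654 after centring, against 4568.

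Over all genes, array weights gave 7447 calls between days 3 and 1, 9602 between days 7 and 1, 5152 between days 7 and 3, 8280 on day 7 against sham and 14600 by the F test, where the fit as reported gave 1494, 4854, 2327, 4568 and 9637. Without arrays 13 and 31 the calls were 5807 between days 3 and 1, 8165 between days 7 and 1, 3802 between days 7 and 3, and 7480 on day 7 against sham. Fits of both groups alone gave 254 between days 3 and 1, 855 between days 7 and 3, and 7122 on day 7 against sham. With 1 array left out the range was 807 to 6544 between days 3 and 1 (6544 without array 31), 3311 to 9245 between days 7 and 1 (9245 without array 31) and 1455 to 2882 between days 7 and 3 (1455 without array 71). The cause of these shifts was not tested. No paired analysis was possible because the groups share no replicate numbers. With 4 arrays a group, the least difference that passes is set by their spread, and signals near background or ceiling, as in Hspa1a and Hspa8, understate or hide a change.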
